A study of Bos taurus with 30 samples.

Results

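A set of 10 genes for secreted plasma proteins, of the 35092 gene IDs counted, was described in bovine conceptuses of day 15, in the disc from which the body forms (ED) and in the membranes around it (EEM). They were TF (Entrez 280705), A2M (513856), TTR (280948), AFP (506011), APOA1 (281631), APOA2 (505394), APOB (494004), APOE (281004), F5 (280687) and FGB (510522). The genes were selected by name, as rows whose Entrez ID carries the symbol in the RefSeq annotation, by a rule drawn up with results of these counts already seen. Which of the measured values played a part in that choice is not given, so the tests below describe these genes and are not independent evidence about them. Each of the 10 IDs was in the count table.

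The 30 libraries came from 17 embryos. IVP embryos grew from oocytes of slaughterhouse ovaries that were matured, fertilized and cultured in vitro without serum and then transferred to recipient cows (7 ED and 6 EEM libraries). IVV embryos were conceived by artificial insemination of superstimulated cows (9 ED and 8 EEM libraries). All were flushed from the uterus on day 15, and those without a visible disc had been discarded, so both procedures are represented by embryos that had formed one. The study found a disc less often in IVP than in IVV embryos and measured IVP embryos as shorter. The groups were thus not matched for size, and the part of size or stage in the differences below was not tested. Of the 17 embryos, 13 gave a library of each tissue (5 IVP and 8 IVV), and the procedure cannot be told apart from the cows that carried the embryos, of which the study's methods give 2 recipients and 2 donors. Library totals ran from 48713218 to 63037371 counts, and levels are given as CPM, the share of a library's counts on a common scale, set with TMM factors over the 30 libraries.

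Hypoblast, or primitive endoderm, is the epithelium that lines the inner face of the disc and of the trophoblast in the elongating conceptus, and it goes on to form the yolk sac. Long before a liver exists, this layer makes many of the proteins that the liver will later release into the blood: iron, hormone and lipid carriers, protease inhibitors and clotting factors. Transcription factors shared by the early endoderm and the liver, among them HNF4A and members of the GATA and FOXA families, are known to drive such genes. In bulk tissue, fewer hypoblast cells and less RNA per cell cannot be told apart.

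The labels were first compared with markers. POU5F1, which keeps epiblast cells pluripotent, stood at 94.7 ± 62.9 CPM in the ED of IVV embryos (SD, n = 9) and at 1.24 ± 0.608 CPM in their EEM (SD, n = 8). Epiblast markers summed to medians of 376.2 CPM in the ED and 150.2 CPM in the EEM of IVV embryos. In IVP embryos the medians were closer, at 275.8 and 168.9 CPM, and IVP11 had 232.9 CPM in its ED and 234.6 CPM in its EEM. All 8 epiblast markers tested were higher in the ED (NANOG, PRDM14 and FGF4 passed the filter on low counts through the discs alone), while SOX2 and UTF1 were listed at 0 in all libraries. Of the 10 listed genes at 0 throughout, 7, these 2 among them, overlap another gene in the RefSeq annotation, and without strand a 0 there does not show that the gene was silent. The transcription factors of hypoblast and endoderm were present in both tissues. Their 14 genes summed to a median of 246 CPM in the ED of IVP embryos, 316 CPM in the ED of IVV embryos, 244 CPM in the EEM of IVP embryos and 232 CPM in the EEM of IVV embryos. Trophoblast markers were abundant in each tissue, with summed medians from 11170 to 22850 CPM, so the disc pieces were not free of trophoblast RNA.

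The 10 genes fell into 3 kinds by tissue (the plot of CPM by tissue and procedure). APOA1, APOE, F5 and FGB had counts in both tissues at levels that overlapped, TF, A2M, APOA2 and APOB stood higher in the ED, and TTR and AFP were near 0 in most libraries. AFP in the ED of IVV embryos ran from 0 to 51.2 CPM. Levels are compared within a gene only, since a long transcript yields more counts than a short one.

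**Figure D1:**
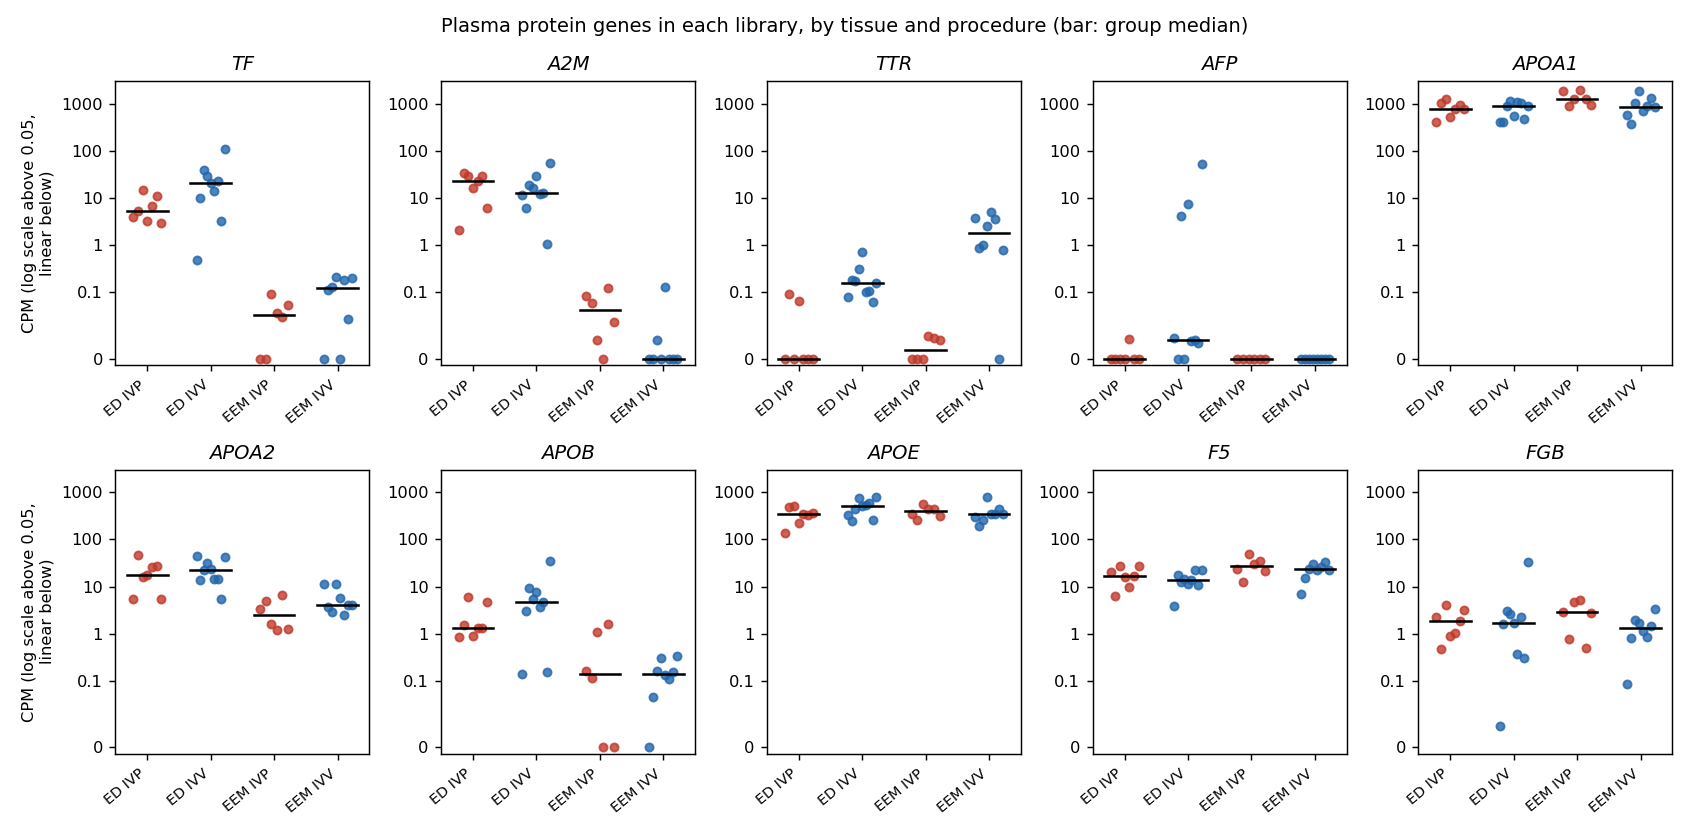
CPM of each of the 10 genes (y axis, log scale above 0.05 CPM and linear below) in the 30 libraries, grouped on the x axis by tissue and procedure, with IVP in red, IVV in blue and the group median as a bar. TF and A2M are at 0.481 CPM or more in each ED library and at 0.206 CPM or less in each EEM library, and TTR reaches 0.801 CPM only in 7 EEM libraries of IVV embryos.

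The first question was where the genes were expressed, in the disc or in the membranes of the same embryo. In the 26 libraries of the 13 embryos, with the embryo as a block, 7 of the 9 genes tested passed the adjusted threshold of 0.05, 4 of them higher in the ED and 3 higher in the EEM. Across all genes 24.5% passed, 14.4% with higher and 10.1% with lower values in the ED. AFP did not pass the filter on low counts, which asked for 0.183 CPM before TMM scaling in at least 5 libraries. TF and A2M reached that level in all 13 discs and in 0 membranes, and APOB in 12 discs and 4 membranes, so these 3 genes passed it through the discs and could enter the test only by being high there. The median log2 difference of all genes tested was -0.09, against which the values below are to be read.

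TF encodes transferrin, the iron carrier of plasma. In the ED its lowest, median and highest values were 2.94, 5.30 and 14.5 CPM in IVP embryos and 0.481, 20.7 and 109 CPM in IVV embryos. In the EEM the values were 0, 0.0419 and 0.0905 CPM in IVP embryos and 0, 0.120 and 0.206 CPM in IVV embryos. The groups of the 2 tissues did not overlap, and TF was higher in the ED in 13 of 13 embryos, a pattern that 5.33% of all genes tested had. The log2 difference between ED and EEM was 7.30 ± 0.39 (SE, adjusted p = 9.64e-11). Only 1 of the 6 IVP and 5 of the 8 IVV membrane libraries had more than 3 counts of TF, so the size of this fitted difference is loosely determined.

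A2M encodes alpha-2-macroglobulin, which traps proteases of many kinds. In the ED it ran from 2.04 CPM through a median of 23.0 CPM to 33.9 CPM in IVP embryos and from 1.06 CPM through 12.6 CPM to 56.1 CPM in IVV embryos. No EEM library exceeded 0.131 CPM, which were 6 counts, and 6 of the 8 EEM libraries of IVV embryos had 0. A2M was higher in the ED in 13 of 13 embryos, with a fitted log2 difference of 9.00 ± 0.40 (SE, adjusted p = 7.43e-12). With so few counts in the membranes, this size too is loosely determined.

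The apolipoproteins went separate ways. APOA2, a small protein of high-density lipoprotein, had medians of 17.4 CPM in IVP and 22.8 CPM in IVV discs, and of 2.48 CPM and 4.14 CPM in the membranes. Its groups overlapped between tissues, since discs reached down to 5.41 CPM and membranes up to 11.5 CPM, yet within embryos it was higher in the ED in 13 of 13. The log2 difference was 2.19 ± 0.26 (SE, adjusted p = 3.21e-06).

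APOB is the scaffold on which low-density lipoprotein and chylomicrons are built. In the ED it ran from 0.854 through 1.31 to 5.88 CPM in IVP embryos and from 0.140 through 4.68 to 34.1 CPM in IVV embryos, and in the EEM from 0 through 0.140 to 1.60 CPM in IVP and from 0 through 0.141 to 0.332 CPM in IVV embryos. It was higher in the ED in 11 of 13 embryos, the exceptions being IVPF14 and VE5, and the log2 difference was 3.75 ± 0.61 (SE, adjusted p = 0.000125). In the 5 IVP embryos alone the log2 difference was 2.52 and did not pass (adjusted p = 0.107).

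APOA1, the main protein of high-density lipoprotein, was high in every library. It ran from 396.3 through 770.3 to 1238 CPM in IVP discs, from 397.9 through 881.0 to 1150 CPM in IVV discs, from 883.4 through 1246 to 1893 CPM in IVP membranes and from 362 through 862 to 1803 CPM in IVV membranes. These 4 groups overlapped, and APOA1 was higher in the EEM in 10 of 13 embryos. The log2 difference of -0.47 ± 0.17 (SE, adjusted p = 0.0496) was barely past the threshold. It was lost with RLE normalization (adjusted p = 0.0721), without the embryo block (adjusted p = 0.213), and when any of 10 of the 13 embryos was left out (adjusted p up to 0.0973). APOA1 overlaps APOA4 and LOC107133155 in the RefSeq annotation and the libraries carry no strand, but these genes had 1386 and 328 counts in all libraries together against 1508045 for APOA1.

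APOE, the ligand by which lipoprotein remnants are taken up through receptors of the LDL family, had medians of 339 CPM in IVP discs, 514 CPM in IVV discs, 393 CPM in IVP membranes and 346 CPM in IVV membranes. Its groups overlapped throughout, and it was higher in the ED in 7 of 13 embryos and in the EEM in 6. The log2 difference was 0.08 ± 0.16 (SE, adjusted p = 0.750).

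F5 and FGB are clotting genes. F5 encodes factor V, the cofactor with which factor Xa activates prothrombin. Its medians were 16.6 CPM in IVP and 13.6 CPM in IVV discs, and 27.0 CPM and 23.3 CPM in the membranes. F5 was higher in the EEM in 12 of 13 embryos, with VE24 as the exception, and the log2 difference between ED and EEM was -0.86 ± 0.12 (SE, adjusted p = 2.47e-05). FGB encodes the beta chain of fibrinogen, the precursor of fibrin. It ran from 0.471 through 1.83 to 4.07 CPM in IVP discs and from 0.0200 through 1.72 to 33.4 CPM in IVV discs, and its log2 difference was -0.22 ± 0.36 (SE, adjusted p = 0.687), with 7 of 13 embryos higher in the EEM.

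TTR encodes transthyretin, which carries thyroxine and, bound to RBP4, retinol. It reached the filter's 0.183 CPM in 7 membranes and 4 discs, so it passed through the membranes and could enter the test only by being high there. It had a log2 difference between ED and EEM of -2.70 ± 0.67 (SE, adjusted p = 0.00671), higher in the EEM in 9 of 13 embryos and in the ED in 2, with 0 counts in both tissues of the other 2. All IVP embryos were near 0 in both tissues, so the difference rests on the IVV embryos. Of the 8 IVV embryos 7 were higher in the EEM.

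**Figure D2:**
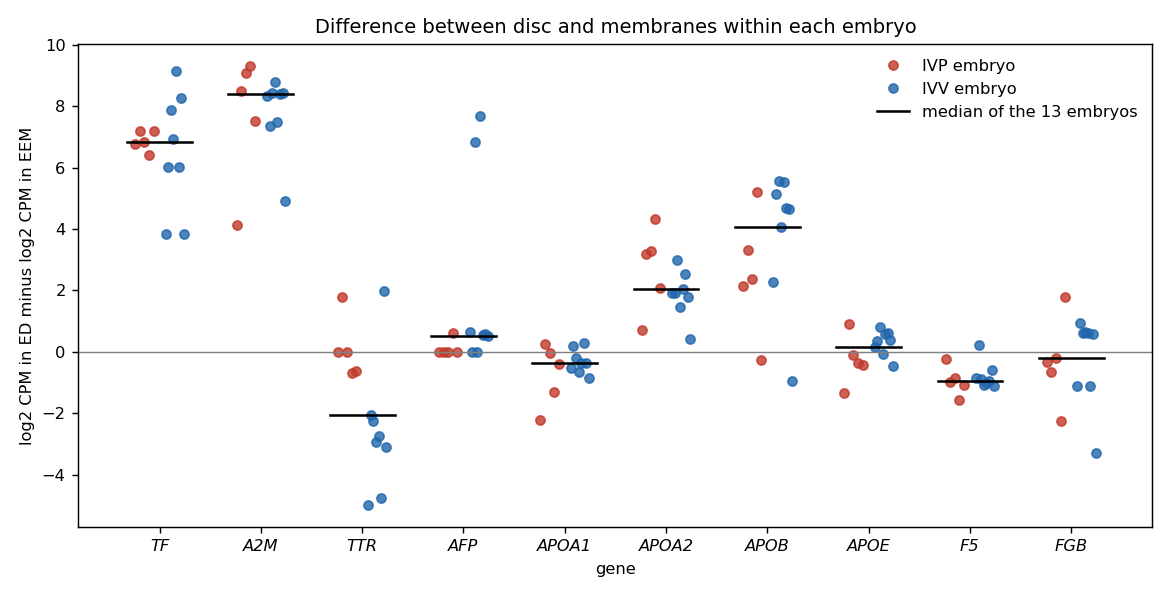
Log2 CPM in the ED minus log2 CPM in the EEM (y axis) for each of the 10 genes (x axis), with a point for each of the 5 IVP (red) and 8 IVV embryos (blue) that have both libraries, and a bar at the median. TF, A2M and APOA2 lie above 0 in all 13 embryos, F5 below 0 in 12 and APOE on both sides.

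Other genes of the same trades were set beside these. Of those named below, ORM1, STRA6, CER1 and CUBN reached the filter's 0.183 CPM in 0 membranes and F7, PROC and THRB in 2 or 3, so these 7 passed it through the discs and could enter the test only by being high there. The counts and medians of the lists include genes of this kind. Of the 19 tested genes for other plasma proteins of liver and yolk sac endoderm, 7 were higher in the ED and 0 lower, with a median log2 difference of 0.23. CFB, a protease of the complement system, was higher by 2.40 ± 0.25 (log2 ± SE, adjusted p = 7.68e-07), and SERPINF2, the inhibitor of plasmin, by 2.10 ± 0.28 (adjusted p = 1.43e-05). ORM1, an acute-phase protein, averaged 3.07 CPM in IVV discs and had 0 counts in every IVV membrane library (adjusted p = 5.98e-07). FETUB, a relative of fetuin-A and the gene of this list with the highest mean CPM, was at 472 ± 283 CPM in IVV discs and 244 ± 115 CPM in IVV membranes and did not pass. ALB, albumin, had at most 4 counts in any library.

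Of 16 tested coagulation partners 7 were higher and 1 lower in the ED, with a median log2 difference of 0.71. VWF, the carrier of factor VIII, was higher by 1.46 ± 0.20 (adjusted p = 1.41e-05), PROC, the zymogen of activated protein C, by 2.69 ± 0.38 (adjusted p = 2.41e-05), and F7, which starts clotting with tissue factor, by 3.07 ± 0.47 (adjusted p = 5.82e-05). The exception was LMAN1, the receptor that carries factors V and VIII out of the endoplasmic reticulum, lower by -0.33 ± 0.10 (adjusted p = 0.0229). F5 and LMAN1 were both higher in the EEM.

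Of 17 tested genes of lipoprotein assembly, other apolipoproteins and lipoprotein receptors, 8 were higher in the ED and 0 lower, with a median log2 difference of 0.56. APOC2, the activator of lipoprotein lipase, was higher by 2.20 ± 0.20 (adjusted p = 1.48e-07), LPL, that lipase itself, by 2.30 ± 0.28 (adjusted p = 4.09e-06), and LRP1, a receptor that clears A2M and remnants, by 1.52 ± 0.18 (adjusted p = 3.12e-06). SCARB1, the receptor for high-density lipoprotein, had the highest mean CPM of the list, at 189 ± 50.6 CPM in IVV discs and 339 ± 109 CPM in IVV membranes, and did not pass. APOC3 and VLDLR, which overlap other genes in the RefSeq annotation, were listed at 0 in all libraries.

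Of 11 tested genes of iron uptake and storage 2 were higher in the ED: STEAP3, which reduces iron released from transferrin, by 2.18 ± 0.20 (log2 ± SE, adjusted p = 2e-07) and SLC40A1, the exporter ferroportin, by 0.40 ± 0.15 (adjusted p = 0.0488). Of 6 tested genes of thyroid hormone and retinol transport 3 were higher in the ED and 0 lower. Among them THRB, a thyroid hormone receptor, was higher in the ED by 1.64 ± 0.52 (log2 ± SE, adjusted p = 0.0278). STRA6, the receptor for RBP4, averaged 4.10 CPM in IVV discs and 0.0136 CPM in IVV membranes (adjusted p = 6.76e-06). Both genes stood higher in the tissue in which TTR stood lower.

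Among the 14 transcription factors of hypoblast and endoderm, 3 were higher in the ED and none was lower. HNF4A was higher by 0.75 ± 0.10 (log2 ± SE, adjusted p = 1e-05), FOXA2 by 0.47 ± 0.14 (adjusted p = 0.0213) and GATA4 by 0.43 ± 0.13 (adjusted p = 0.0242). These differences were smaller than those of TF, A2M, APOA2 and APOB. Of 13 tested genes for uptake, surface and matrix of hypoblast 3 were higher and 2 lower. CUBN, an endocytic receptor, was higher in the ED by 4.36 ± 0.55 (adjusted p = 7.74e-06). CER1, a secreted inhibitor of NODAL, averaged 3.24 CPM in IVV discs and 0.0150 CPM in IVV membranes (adjusted p = 3.43e-08), while NID2 of the basement membrane was lower by -0.63 ± 0.13 (adjusted p = 0.000912). Of 14 tested trophoblast markers 1 was higher and 3 were lower in the ED, and their part in the differences between tissues was not tested.

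Maternal blood markers moved in the same direction as TF, A2M, APOA2 and APOB. The 11 genes of that list summed to 3.50 to 17.2 CPM in IVP discs (median 10.99) and 6.49 to 43.0 CPM in IVV discs (median 14.95), against medians of 2.76 and 3.39 CPM in IVP and IVV membranes. Of the 3 tested, ALAS2 and CD79A were higher in the ED and 0 were lower, but CD79A and S100A8 passed the filter through the discs alone. Most of the sum was ALAS2, the enzyme that starts heme synthesis in red cells, with group means from 2.29 to 16.02 CPM, while HBB, beta-globin, averaged at most 0.0106 CPM in any group. The part of blood RNA in the differences between tissues was not tested.

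The next question was whether IVP and IVV embryos differed in the membranes. Of the 6 genes tested 1 passed, TTR, and it was lower in IVP embryos. Across all genes 3.81% passed, 2.29% higher and 1.52% lower in IVP. TF, A2M, AFP and APOB had too few counts in the EEM to be tested. The median log2 fold change of all genes tested was 0.0038.

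TTR was at 3.65 CPM in the EEM of VE19, 0.873 CPM in VE24, 0.983 CPM in VE26, 2.57 CPM in VE28, 4.91 CPM in VE29, 3.64 CPM in VE3, 0 in VE4 and 0.801 CPM in VE5. In the 6 IVP membranes it had at most 1 count. Of the 8 IVV embryos 7 were thus above every IVP embryo, and VE4 was with them. Set against a floor of 3 counts per library, TTR was at least 37-fold lower in IVP (mean 2.18 ± 1.76 CPM in IVV, SD, n = 8). The fitted log2 fold change was -7.26 ± 0.93 (SE, adjusted p = 3.2e-05). With at most 1 count in each IVP library, TTR passed the filter on low counts through its IVV libraries alone, so it could enter the test only by being high there.

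In the disc TTR was lower in level but also mostly seen in IVV embryos. It had between 4 and 45 counts in each of the 9 IVV discs, 0.0614 to 0.709 CPM, and 0 counts in 5 of the 7 IVP discs, with 4 counts in each of the others. The groups overlapped at 0.0614 to 0.0898 CPM. It did not pass the filter on low counts and was tested only without it, at a log2 fold change of -3.14 (adjusted p = 0.0216). Maternal blood markers summed to 1.58 to 3.95 CPM in the EEM of IVP and 0.450 to 8.26 CPM in that of IVV embryos, most of it ALAS2, and uterine markers to 2.19 to 8.07 and 3.59 to 10.01 CPM. Trophoblast markers summed to a median of 11170 CPM (6570 to 37490) in the EEM of IVP and 22850 CPM (10840 to 27980) in that of IVV embryos, with KRT7 as the 1 of 14 tested that was lower in IVP. Epiblast markers summed to medians of 168.9 and 150.2 CPM, with NODAL as the 1 of 5 tested that was lower in IVP, a gene that reached the filter's 0.182 CPM in 7 IVV and 0 IVP membranes and so could be tested only by being high in IVV. The part of these markers in the level of TTR was not tested.

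The other members tested in the EEM did not pass. FGB was at 2.80 ± 1.92 CPM in IVP membranes (SD, n = 6) and 1.41 ± 0.958 CPM in IVV membranes (SD, n = 8), a log2 fold change of 0.97 ± 0.47 (SE, adjusted p = 0.365). APOA1 was at 1336 ± 438 CPM in IVP and 937 ± 450.3 CPM in IVV membranes, a log2 fold change of 0.51 ± 0.30 (adjusted p = 0.517). APOA2 had a log2 fold change of -0.53 ± 0.36 (adjusted p = 0.632), F5 of 0.25 ± 0.28 (adjusted p = 0.880) and APOE of 0.10 ± 0.27 (adjusted p = 0.983). These sizes are within about 2 standard errors of 0 and leave room for moderate differences either way.

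FGG, the gamma chain of fibrinogen, was the coagulation partner that passed in the EEM, higher in IVP by 1.92 ± 0.43 (log2 ± SE, adjusted p = 0.00782) at 0.596 against 0.153 CPM, levels near the 0.182 CPM that the filter asked for. Among the other plasma proteins HRG, a histidine-rich glycoprotein that binds heparin and plasminogen, was higher by 1.15 ± 0.30 (adjusted p = 0.0281). None of the tested genes of lipoprotein handling, iron, or thyroid hormone and retinol transport passed. SOX7 and HHEX, transcription factors of the early endoderm, were lower in IVP membranes, by -1.85 ± 0.38 (adjusted p = 0.00457) and -1.28 ± 0.36 (adjusted p = 0.0444), and DPP4, a surface peptidase, was higher by 2.05 ± 0.32 (adjusted p = 0.000255). The other 11 tested hypoblast transcription factors did not pass.

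In the disc, 0 of the 8 genes tested passed between IVP and IVV embryos with edgeR, 2 of them (TF and APOB) had an unadjusted p under 0.05, and 0 passed with DESeq2. Across all genes 18.4% had an unadjusted p under 0.05 and 6.34% passed, 1.4% higher and 4.95% lower in IVP. The median log2 fold change of all genes tested was -0.0079.

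TF was at 6.84 ± 4.41 CPM in IVP discs (SD, n = 7) and 27.6 ± 33.0 CPM in IVV discs (SD, n = 9). The log2 fold change was -1.99 ± 0.64 (SE, adjusted p = 0.0671), just outside the threshold. Of the IVV discs 7 were above the IVP median of 5.30 CPM, while VE19 and VE5 were at 0.481 and 3.30 CPM. The call turned on single discs and on the terms of the model. Without VE19 the log2 fold change was -2.20 (adjusted p = 0.0129), without VE5 -2.16 (adjusted p = 0.0343), and without VE6, which held 109 CPM, -1.37 (adjusted p = 0.175). With no surrogate variable in the model TF passed as well, at -2.03 (adjusted p = 0.0325). It was -0.43 with XIST as a covariate (adjusted p = 0.965) and -1 among embryos with both tissues (adjusted p = 0.401). Whether XIST itself differed between IVP and IVV discs was not tested.

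APOB was at 2.34 ± 2.04 CPM in IVP discs and 7.57 ± 10.4 CPM in IVV discs, a log2 fold change of -1.82 ± 0.70 (SE, adjusted p = 0.139). It passed when VE5 was left out, at -2.07 (adjusted p = 0.0397), and stood at -1.15 without VE6 (adjusted p = 0.373), at -1.01 among embryos with both tissues (adjusted p = 0.479) and at -0.03 with XIST as a covariate (adjusted p = 0.999). FGB was at 1.98 ± 1.31 CPM in IVP and 5.03 ± 10.7 CPM in IVV discs, with a log2 fold change of -1.39 ± 0.78 (adjusted p = 0.368) that became 0.10 without VE6 (adjusted p = 0.974). The other members tested lay closer to 0. APOE had a log2 fold change of -0.54 ± 0.28 (adjusted p = 0.322), APOA2 of -0.18 ± 0.34 (adjusted p = 0.867), APOA1 of 0.07 ± 0.27 (adjusted p = 0.947), F5 of 0.10 ± 0.25 (adjusted p = 0.898) and A2M of 0.10 ± 0.53 (adjusted p = 0.961).

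AFP encodes alpha-fetoprotein, a relative of albumin in fetal plasma. It had 0 counts in 6 of the 7 IVP discs, 1 count in the remaining one and 0 counts in all 14 EEM libraries. In IVV discs it was at 51.2 CPM in VE6, 7.48 CPM in VE29 and 4.14 CPM in VE26, and at most 0.0200 CPM in the other 6. AFP was therefore detected beyond 3 counts in 3 of the 16 discs, all IVV, and in no membrane. The mean of the IVV discs, 6.99 ± 16.8 CPM (SD, n = 9), was at least 126-fold above the floor of 3 counts in IVP discs and fell to 1.46 ± 2.83 CPM without VE6. AFP did not pass the filter on low counts. Without that filter its adjusted p was 0.000514, a value that rests on the same 3 discs.

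**Figure D3:**
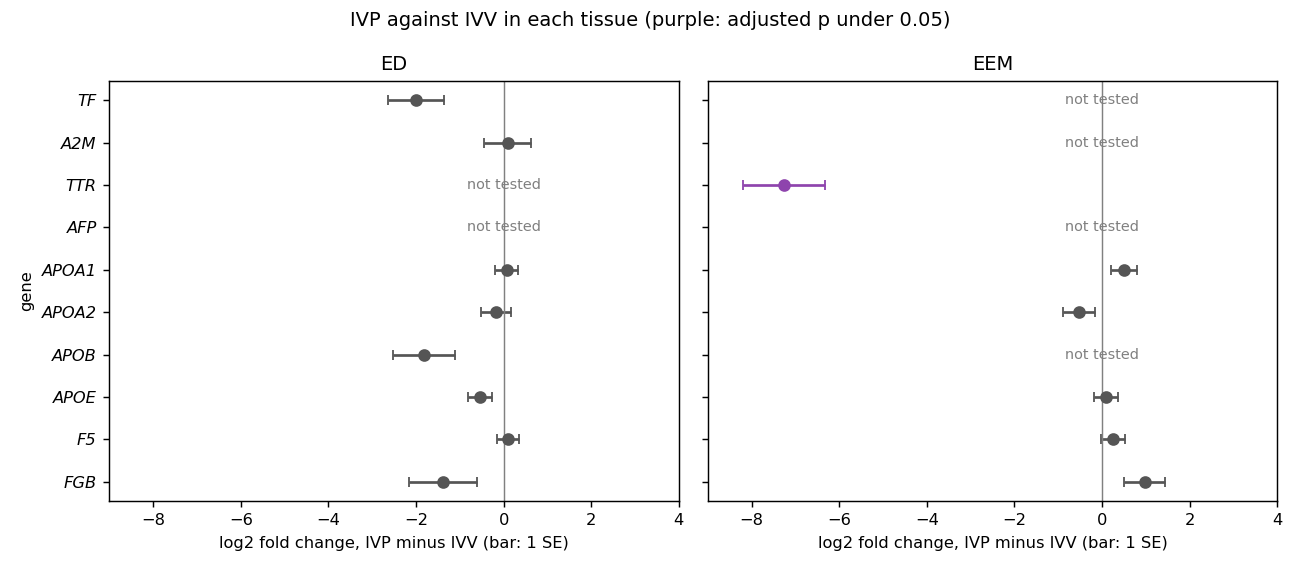
Log2 fold change between IVP and IVV embryos (x axis, negative values lower in IVP, bars 1 SE) of each gene (y axis) in the ED (left) and the EEM (right), with purple where the adjusted p is under 0.05. TTR at -7.26 in the EEM is the single gene past the threshold, and TF at -1.99 and APOB at -1.82 are the lowest in the ED.

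Among related genes in the disc, AHSG, which encodes fetuin-A, was lower in IVP by -1.75 ± 0.37 (log2 ± SE, adjusted p = 0.00529), at 11.1 against 35.9 CPM. APOC4 was lower by -2.07 ± 0.45 (adjusted p = 0.00587) and LRP1 by -0.94 ± 0.27 (adjusted p = 0.04), while ABCA1, which loads lipid onto APOA1, was higher by 0.84 ± 0.23 (adjusted p = 0.0291). Of 6 tested genes of thyroid hormone and retinol transport 2 were lower and 0 higher, and STRA6 was lower by -4.31 ± 0.76 (adjusted p = 0.00112). It reached the filter's 0.185 CPM in 9 IVV and 4 IVP discs, and THRB of the same list in 7 IVV discs and 1 IVP disc. The filter asked for 7 libraries, so STRA6 and THRB passed it through the IVV discs and could enter the test only by being high there. None of the 16 tested coagulation partners and none of the 10 tested iron genes passed. CUBN was lower by -2.42 ± 0.65 (adjusted p = 0.0261), DPP4 was higher by 1.62 ± 0.31 (adjusted p = 0.00221), and of the hypoblast transcription factors SOX7 alone passed, lower by -1.24 ± 0.36 (adjusted p = 0.0421). Of 7 tested epiblast markers 2 were lower and 0 higher, with a median log2 fold change of -0.28: POU5F1 and PRDM14, by -1.72 ± 0.36 (adjusted p = 0.00479) and -1.95 ± 0.40 (adjusted p = 0.00411). Of 14 tested trophoblast markers 2 were lower and 0 higher, KRT7 by -0.95 ± 0.25 (adjusted p = 0.0252) and TKDP4 by -1.41 ± 0.39 (adjusted p = 0.0291), and whether the make-up of the disc pieces moved with the plasma protein genes was not tested.

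Whether the difference between disc and membranes depended on the procedure was tested as an interaction in the same 26 libraries. None of the 9 genes tested passed with edgeR or with DESeq2, and 0 had an unadjusted p under 0.05. Across all genes 10.3% had an unadjusted p under 0.05 and 1.02% passed. APOB had the smallest unadjusted p, with a log2 interaction of -2.19 ± 1.06 (SE, adjusted p = 0.492), followed by APOE at -0.61 ± 0.30 (adjusted p = 0.495). For TTR the value was 3.63 ± 2.16 (adjusted p = 0.631), so a larger difference between IVP and IVV in the EEM than in the ED was not shown. With each embryo left out it ran from 0.67 without IVP11 to 4.53 without IVPF14. The standard errors of TF, A2M and TTR, from 0.87 to 2.16, leave several-fold differences undetectable in 13 embryos.

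The discs varied widely within each procedure, and several of the genes did so together (the heat map of the 16 discs). VE6, an IVV disc with no membrane library, held the highest value of TF, A2M, AFP, APOB, APOE and FGB among the 16 discs. Its 33.4 CPM of FGB stood beside 2.997 CPM in the next IVV disc, and its 34.1 CPM of APOB beside 9.34 CPM. Without it the IVV discs averaged 17.3 ± 12.9 CPM of TF, 4.26 ± 3.27 CPM of APOB and 1.48 ± 1.13 CPM of FGB (SD, n = 8). VE19 had the lowest TF, APOB, F5 and FGB of the 16 discs and the second highest APOA2, at 43.8 CPM, and VE5 had the lowest A2M. The hypoblast transcription factors summed to 403 CPM in VE6, 315 CPM in VE19 and 231 CPM in VE5, the highest, a middle and the lowest value of the IVV discs, and the epiblast markers to 306, 351 and 1007 CPM. Maternal blood markers summed to 6.49 CPM in VE6, the lowest of the IVV discs. The part of these differences in the levels of the plasma protein genes was not tested.

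**Figure D4:**
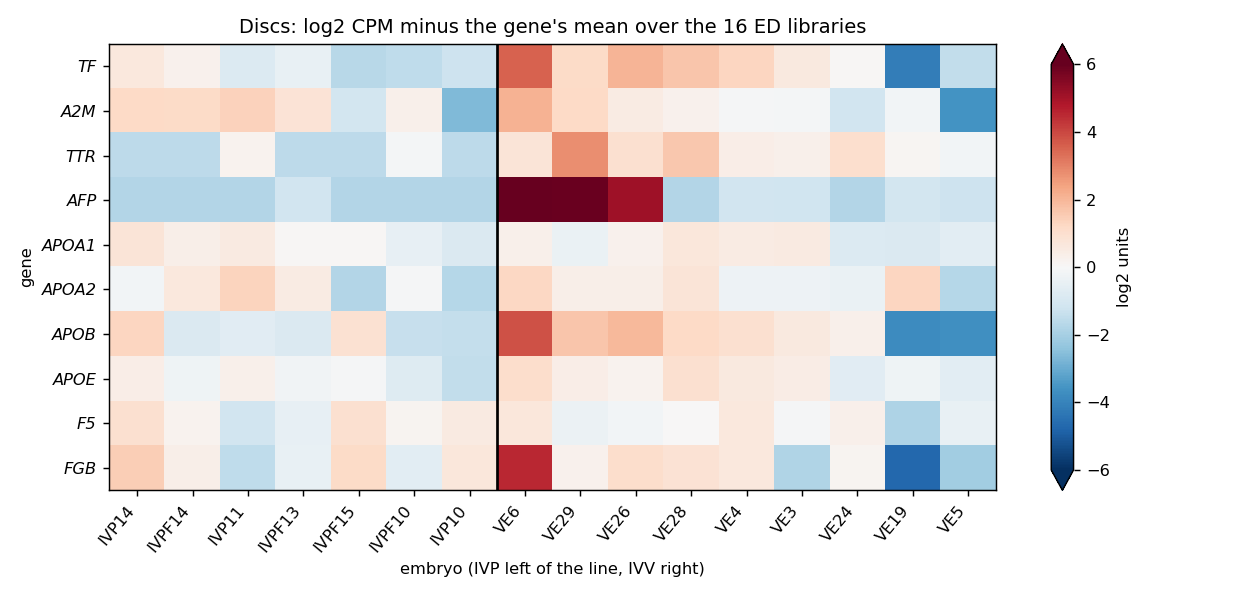
Log2 CPM of each gene (rows) in each disc (columns, IVP left of the line and IVV right) minus the gene's mean over the 16 ED libraries, red above and blue below that mean. VE6 is red for TF, APOB, FGB and AFP, VE19 and VE5 are blue for TF and APOB, and AFP is high in VE6, VE29 and VE26 alone and exceeds the color scale in VE6.

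Over the 16 discs, the log2 CPM of TF and APOB varied together (Pearson r = 0.874, adjusted p = 0.00152, Spearman rho = 0.847, adjusted p = 0.0038, permutation test with 100000 resamples, two-sided). The relation was 0.745 without the 2 discs farthest in TF, VE19 and VE6, and was 0.947 within the 9 IVV discs but 0.316 within the 7 IVP discs. F5 and FGB varied together too, with r = 0.793 and rho = 0.768 (permutation test, adjusted p = 0.00285 and 0.00864), 0.604 without VE19 and IVP11, 0.940 within IVP and 0.830 within IVV discs. A2M and APOA2 had r = 0.822 and rho = 0.703 (permutation test, adjusted p = 0.00177 and 0.0164), 0.671 without VE5 and IVP10, 0.891 within IVP and 0.829 within IVV. APOA1 and APOE had r = 0.771 and rho = 0.747 (permutation test, adjusted p = 0.00312 and 0.00988), 0.739 without IVP10 and VE19, 0.964 within IVP and 0.841 within IVV. In all, 38 pairs were computed, 28 in the ED and 10 in the EEM. Of these, 15 and 5 passed by Pearson r after Benjamini-Hochberg adjustment and 7 and 4 by Spearman rho, with median r of 0.568 and 0.452. Pairs of other genes were not computed, so these numbers are a description and do not set the members apart.

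Some pairs ran against each other. APOA2 and F5 had r = -0.492 and rho = -0.506 in the discs (permutation test, adjusted p = 0.0863 and 0.0901), with -0.343 after leaving out IVPF15 and IVP10, -0.779 within IVP and -0.192 within IVV. In the 14 membranes APOA2 and FGB had r = -0.707 and rho = -0.675 (permutation test, adjusted p = 0.0158 and 0.0341), -0.635 without IVPF13 and IVPF9, -0.899 in the 6 IVP and -0.463 in the 8 IVV embryos. The points share the library and its scaling, which moves all genes of a library at once.

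The genes most like the mean of the 10, by Pearson r over the 30 libraries, were AQP8 (r = 0.907), VIL1 (0.898), CUBN (0.887), CREB3L3 (0.883), ENTPD8 (0.879), COL1A2 (0.879), A1CF (0.877) and FTCD (0.875), out of 17230 genes compared. AQP8 is a water channel, VIL1 builds the microvilli of absorptive epithelia, CREB3L3 is a transcription factor of liver and gut, and A1CF is a partner of the enzyme that edits APOB mRNA. Libraries of both tissues enter each r, so a step between ED and EEM that genes have in common raises it, and the values are a description.

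For single genes, TF was most like CDH11 and CREB3L3 (r = 0.924 for each), A2M like ACSM2B (0.975) and EGFLAM (0.973), and APOA2 like GUCA2A (0.924) and FTCD (0.894). APOB was most like APELA (0.866) and SERPINF2 (0.864), and F5 like RIPOR2 (0.864) and ADGRD1 (0.858). APOA1 was most like HIP1R (0.835) and RBP4 (0.752), the retinol carrier that binds transthyretin, while TTR itself was most like MGC133636 (0.832) and SH2D6 (0.808). FGB was most like PAPSS2 (0.768) and CDH17 (0.761), and APOE like P3H1 (0.747) and LAMB2 (0.743). AFP was most like PTPN7 (0.884) and GPR20 (0.861), but the latter value was -0.244 without the 2 libraries farthest in AFP.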

How the data were processed

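RNA was measured in 30 poly(A)-selected, non-stranded libraries of day 15 bovine embryos. Per the labels and the study's methods, the authors filtered paired reads with SOAPnuke and counted them per gene after alignment to ARS-UCD1.3. The submitters' processing notes name FastQC 0.11.9, Trimmomatic, STAR 2.7.0b and featureCounts of Subread 2.0.3. The deposited values are raw counts per gene ID and library, without normalization. Symbols came from the RefSeq table of ARS-UCD2.0, which names 31630 of 35092 IDs. Its coordinates served only to list genes that overlap. Protein, promoter and coding sequences were not used here, so no level was set per length and no motif was searched.

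Counts were tested with edgeR 4.0.16 in R 4.3.3: TMM, filterByExpr with at least 10 counts, the quasi-likelihood test and Benjamini-Hochberg adjustment over all genes tested at 0.05. IVP and IVV were compared within each tissue with 1 surrogate variable from svaseq (sva 3.50.0), as the study controlled morphology with sva. The labels give neither the morphology nor the sex of an embryo. The ED and EEM, and the interaction, were tested in the 26 libraries of 13 embryos with the embryo as block, since both libraries bear that embryo's name. Log2 CPM used a prior count of 2. The SE of a log2 value was its absolute size divided by the square root of the test's F statistic, not a standard error from the fit. Where a group is near 0 counts, it need not show how loosely the size is determined. The floor of a group was 3 counts in each of its libraries, a limit for counting error only. The study's methods give 2 recipient and 2 donor cows, and the labels tie no embryo to a cow, so embryos of a group shared cows and p-values measure the spread between embryos. Scripts were tested on simulated data. DESeq2 1.42.0, other scalings, filters, covariates and left-out embryos were alternatives. All 10 members were named, from other lists at most the 4 genes with the highest mean CPM and the 3 passing genes with the smallest p per comparison, and by likeness 8 genes for the mean and 2 per member. Members and lists were chosen with earlier results of these data known. One listed gene that passed is counted but not reported here.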

Additional observations from a re-analysis of the deposited data

Results flagged for a closer look

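Within 36 combinations of gene and group with counts above the floor, a gap test at the 95% level (Dixon's) set apart 7 single libraries. Its rate of about 1 in 20 by chance holds for normal values, whereas CPM are skewed and A2M was at 0 in 6 of the 8 IVV membranes, so the number set apart is a description. Of these, 4 were the disc of VE6 among the 9 IVV discs: TF at 109 CPM (next 38.0), AFP at 51.2 CPM (next 7.48), APOB at 34.1 CPM (next 9.34) and FGB at 33.4 CPM (next 2.997). TTR in the disc of VE29 was 0.709 CPM (next 0.302). A2M in the membranes of VE29 was 0.131 CPM, which is 6 counts (next 0.0182). APOE in the membranes of VE28 was 779 CPM (next 448).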

How the results depend on the processing

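Of 665 values of single genes under the alternatives, 622 kept their direction and their side of the threshold. Most of them had not passed in the main fit, and the runs with an embryo left out share most libraries. The number is therefore a count and no measure of robustness. Members called in the ED rose from 0 to 1 of 8 with no surrogate variable, where 934 of all 15733 genes tested were called. They rose to 3 of 10 with no filter on low counts (TF -1.94, adjusted p = 0.0351, TTR -3.14, AFP -12.05), where 1846 of 23686 genes were called. With each embryo left out they ran from 0 to 2, and genes called from 639 to 1160. In the EEM the call of TTR ended only when at least 10 counts were required in every library, which left 0 calls among 4 genes without TTR. Its log2 fold change ran from -7.57 to -6.63 (adjusted p from 2.08e-25 to 0.000508) with each embryo left out. Between ED and EEM, 7 calls became 2 of 4 tested with that filter and 4 of 8 in the IVP embryos alone. All genes called with that filter and in IVP embryos alone are given below. With each embryo left out, members called ran from 6 to 7 and genes called from 3149 to 4439. With no replicate block, so without pairing the tissues by embryo, 6 members were called and genes called fell from 4104 to 2127. The interaction gave 0 members with and without the embryo block.

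Directions changed among values that did not pass. In the ED, A2M became -0.02 with 2 surrogate variables. With XIST as a covariate APOA2 became 0.55 and FGB 2.38, while TF moved to -0.43 and A2M to 1.32. Among embryos with both tissues APOA2 became 0.11 and FGB 0.25, while A2M moved to 0.78 and TF to -1 (adjusted p = 0.401). With each embryo left out, the ED values ran from -0.20 to 0.63 for A2M, -0.08 to 0.18 for APOA1, -0.01 to 0.49 for F5, -0.75 to 0.12 for APOA2 and -1.66 to 0.10 for FGB, the EEM value of APOE from -0.05 to 0.30, the value of FGB between ED and EEM from -0.40 to 0.02 and its interaction from -0.76 to 0.15. APOE between ED and EEM was -0.26 in the IVP embryos alone. APOA1 between ED and EEM lost its call without any of 10 of the 13 embryos. The cause was not tested.

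Genes called between IVP and IVV in the ED were 1512 with DESeq2, 1846 with no filter, 431 with at least 10 counts in every library, 659 with XIST and 639 without VE29. In the EEM they were 1211 with no filter, 275 with the strict filter and 146 with XIST. Between tissues they were 1828 with the strict filter and 488 in IVP embryos alone, and for the interaction 435 with DESeq2, 356 with no filter, 11 with the strict filter and 101 to 211 with each embryo left out. Levels per coding length and promoter motifs were planned and not run. Genes under 3 counts per library cannot be told from absent at this depth.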
